A study of Mus musculus with 5 samples.

Results

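The genes of entry into S phase and of DNA replication were followed in mouse hepatobiliary organoids, epithelial cultures grown from liver stem/progenitor cells. The set was 44 named genes, matched by symbol in both deposited tables, out of 52029 genes in the table that 4 libraries share. All 44 were present in both tables and passed the filter on low counts, beside 15899 genes tested in all. The organoids came from wild-type primary liver cells and were kept in a medium with EGF and the ROCK inhibitor Y-27632. Total RNA was taken at day 10 from organoids cultured alone at passage 1 (2 libraries, M11 and M12) and from organoids cultured with liver endothelial cells at passage 8 (3 libraries: M9, M10 and the third library, deposited in a table of its own). Co-culture and passage therefore changed together, and their parts in any difference cannot be told apart. The number of cultures behind each library is not in the sources used here, so p-values reflect only how these libraries vary, and that variation may be technical.

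A cell leaves G1 when D-type cyclins with Cdk4 or Cdk6, and then E-type cyclins with Cdk2, phosphorylate the retinoblastoma pocket proteins and so release E2F transcription factors. E2F proteins switch on many genes of DNA replication, among them those of the origin recognition complex, the MCM helicase, the polymerases and nucleotide synthesis. Origins are licensed in G1 when ORC, Cdc6 and Cdt1 load the MCM2-7 helicase, which Cdc45 and the GINS complex activate in S phase. In adult liver most hepatocytes and cholangiocytes rest outside the cycle, and organoid culture with EGF is a way to keep their progenitors dividing.

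M11 and M12 held 26466739 and 29195328 counts, M9 and M10 held 33881617 and 35878241, and the third co-culture library held 58853737. The smallest count of a member was 56 in the 4 libraries and 72 in the third, so no member was near the detection limit. Levels are given as CPM, depth-scaled counts, normalised over all 5 libraries with TMM (a correction for library composition). Fold changes with a test come from M9 and M10 against M11 and M12 only. Of 18 liver endothelial marker genes, 6 passed the low-count filter, and the 18 summed to 148 and 140 CPM in M11 and M12 and to 41.2, 46.9 and 99.5 in M9, M10 and the third library, with 2, 5, 5, 5 and 7 of them at 0 counts. Most of that sum was Flt4, a VEGF receptor gene, which fell in M9 and M10 (log2 fold change -2.22 ± 0.18, SE; adjusted p = 0.0106, edgeR). The other 17, split off after their values were seen, summed to 11.4, 12, 16.2, 14.4 and 9.33 CPM, so the direction of the list in M9 and M10 turned without Flt4. The defining markers Pecam1 (1, 2, 2, 2 and 10 counts in M11, M12, M9, M10 and the third library) and Cdh5 (3, 2, 6, 5 and 19 counts) were near 0 in all 5 libraries. The epithelial markers were present throughout, Epcam for example at 656, 754, 672, 569 and 532 CPM in the same order.

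No G1/S or replication gene passed the test between the groups, although most of them were lower in co-culture. In M9 and M10 together 40 of the 44 had a negative fold change, with a median of -0.53 on the log2 scale, where 49.9% of all genes tested were negative and their median was 0.00. edgeR called 0 of the 44 at an adjusted p under 0.05, against 2.24% of all genes (0.994% higher and 1.25% lower). At an unadjusted p under 0.05 there were 7 of 44, all lower (Ccne1, Fen1, Cdt1, Rrm1, Ccne2, Pole and Gins2), where 17.5% of all genes were at that level and 9.06% were lower. DESeq2 called 2 lower (Ccne1 and Fen1), where it called 4.25% of all genes lower and 3.94% higher. It had 11 of the 44 at an unadjusted p under 0.05, and 2741 of all 15899 genes. limma-voom called 0 of the 44 (9 at an unadjusted p under 0.05, a level that 17.3% of all genes reached), against 1.16% of all genes lower and 0.648% higher. With no filter on low counts edgeR called the same 2 lower, against 2.58% of all genes lower and 2.34% higher. In that run 20 of the 44 were at an unadjusted p under 0.05, and 3722 of all 28537 genes. With all 5 libraries it called 0 of the 44 (5 at an unadjusted p under 0.05, and 9.7% of all genes), against 0.0136% of all genes lower. M9 and M10 both lay below M11 and M12 for 32 of the 44, and both lay above for 0. Over all genes tested 25.1% lay below in this way and 24.3% above.

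The 2 co-culture libraries of the shared table stood apart from each other. M9 stood close to the organoids alone, with a median log2 difference of -0.18 over the 44 genes, and M10 stood at -0.95. Without M9, when M10 alone stood for the co-culture, edgeR called 30 of the 44 lower and 1 higher, against 7.92% and 7.74% of all genes. Without M10 it called 0 of the 44 (4 at an unadjusted p under 0.05, and 19.3% of all genes), against 3.72% of all genes lower and 2.96% higher. Without M11 it called 0 (1 at an unadjusted p under 0.05, and 9.33% of all genes), against 0.222% lower and 0.0702% higher, and without M12 also 0 (2 at an unadjusted p under 0.05, and 8.48% of all genes). These fits assume that the lone library varies as the other group does. The third co-culture library, which has no test, lay below the organoids alone for 42 of the 44 genes, with a median of -1.34, and 50.4% of all genes were below in that library. It was over 2-fold below for 28 of them, against 17.5% of all genes, and over 2-fold above for 0, against 14.4%. Its counts are per RefSeq gene and those of the shared table are estimated counts per Ensembl gene. Differences in counting and in culture therefore cannot be told apart in this library. In bulk RNA, fewer cycling cells and less of these transcripts in each cell cannot be told apart.

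**Figure D1:**
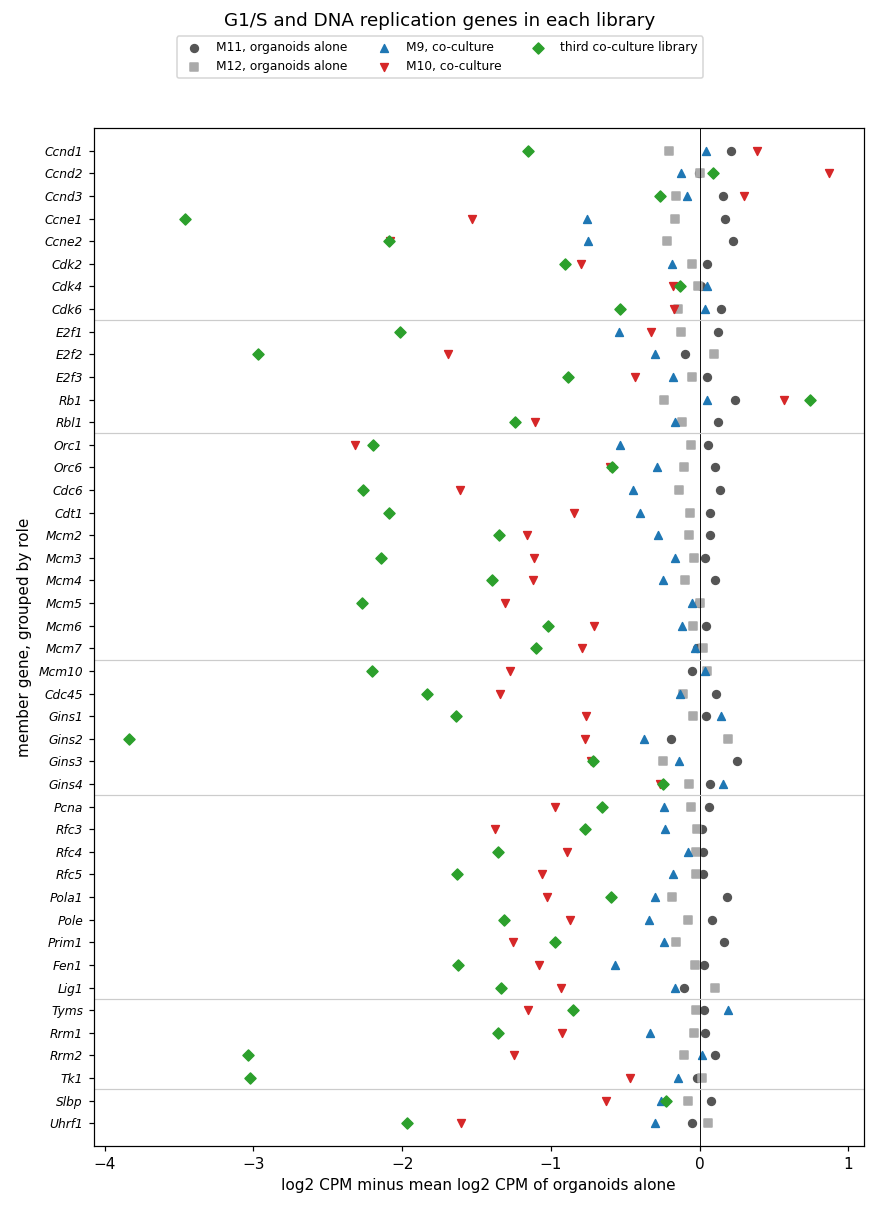
Log2 CPM of each of the 44 genes in each library, minus the average for M11 and M12, with genes in rows grouped by role. M9 stays near the organoids alone (median -0.18), while M10 (median -0.95) and the third library (median -1.34) lie to the left for most genes while Ccnd2 and Rb1 lie to the right in both.

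Promoter sequences are shown for 4 members, because E2F sites are the textbook feature of this gene set. In M10 Mcm6, Cdk2 and Rbl1 stood -0.735, -0.82 and -1.13 from the organoids alone on the log2 scale. Cdk4, shown without E2F letters, stood at -0.20, so the 4 do not stand for the set. RefSeq promoter windows (GRCm38.p6, 300 bases each, 250 before to 50 after the start site) were found for 35 of the 44 genes. Each stretch below runs over the 200 bases before the start site, 5′ to 3′ on the gene's strand. Capitals mark matches to the E2F letters TTTCCCGC, TTTGGCGC, TTTGCCGC or TTTCGCGC on either strand. The Mcm6 stretch lies at chr1:128359706-128359905 (minus strand), Cdk2 at chr10:128705052-128705251 (minus), Rbl1 at chr2:157204535-157204734 (minus) and Cdk4 at chr10:127063335-127063534 (plus).
Mcm6: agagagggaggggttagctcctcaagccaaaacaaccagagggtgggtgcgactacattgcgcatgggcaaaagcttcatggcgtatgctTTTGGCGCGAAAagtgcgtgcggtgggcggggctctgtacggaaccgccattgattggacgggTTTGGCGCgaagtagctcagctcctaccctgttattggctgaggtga
Cdk2: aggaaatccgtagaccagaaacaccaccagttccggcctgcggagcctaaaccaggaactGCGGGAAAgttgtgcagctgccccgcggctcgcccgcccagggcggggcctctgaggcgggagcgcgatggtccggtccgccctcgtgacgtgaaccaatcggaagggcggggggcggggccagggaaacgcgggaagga
Rbl1: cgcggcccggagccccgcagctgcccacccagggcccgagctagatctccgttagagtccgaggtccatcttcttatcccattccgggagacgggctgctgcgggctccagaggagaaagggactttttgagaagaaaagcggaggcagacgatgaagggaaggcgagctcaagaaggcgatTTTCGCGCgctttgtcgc
Cdk4: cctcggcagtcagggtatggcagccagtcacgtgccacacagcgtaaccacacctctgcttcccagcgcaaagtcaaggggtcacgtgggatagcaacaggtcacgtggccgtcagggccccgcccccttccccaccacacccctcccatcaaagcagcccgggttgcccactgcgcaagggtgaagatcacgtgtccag

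In the Mcm6 window the letters occurred 3 times, first at base -110 from the start site, and the first 2 matches overlap on opposite strands. The Rbl1 match began at base -18 and the Cdk2 match at base -140, and the Cdk4 window held none. Of the 35 genes with a window, 16 held the letters in at least 1 window (37.2% of 43 windows), where 2.26% of all 32851 promoter windows of the table held them. The NF-Y box CCAAT, also searched on both strands, was in 58.1% of the members' windows and in 37.4% of all windows. Of the 22 E2F matches in members, 1 overlapped a CCAAT match and 4 overlapped another E2F match. The 16 genes with E2F letters had a median log2 fold change of -0.57 in M9 and M10 and a median M10 minus M9 difference of -0.87. The 19 with windows but no such letters were at -0.485 and -0.75. In the third library the order was reversed, with medians of -1.29 for genes with the letters and -1.35 for those without. M10 was below M9 for 17 of these 19 and for all 16 with the letters. A window without these letters says only that these 8 bases are absent from it.

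No G1 cyclin passed the test. Cyclin E1 (Ccne1, which drives Cdk2 at the G1/S boundary; ENSMUSG00000002068, minus strand of chromosome 7 from 38097984 to 38107534 in GRCm38) stood at 27.8 (M11) and 22.0 (M12) CPM, against 14.7, 8.55 and 2.25 in M9, M10 and the third library. All 3 co-culture libraries lay below both libraries of organoids alone, and the third was the lowest. Over M9 and M10 the mean was 11.6 ± 4.32 CPM against 24.9 ± 4.09 alone (SD, n = 2 each). The log2 fold change was -1.11 ± 0.33 (SE; edgeR, adjusted p = 0.167). Cyclin E2 (Ccne2), the close relative of E1, was at 12.9, 9.50, 6.60, 2.61 and 2.61 CPM in M11, M12, M9, M10 and the third library, with a fold change of -1.29 ± 0.50 in log2 units (SE; edgeR, adjusted p = 0.267). Cdk2 itself was at 37.4 and 34.9 CPM in organoids alone, against 31.7, 20.75 and 19.3 in the co-cultures, without overlap (log2 fold change -0.47 ± 0.25, SE; adjusted p = 0.424, edgeR).

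Cyclin D2 (Ccnd2, a mitogen-induced partner of Cdk4 and Cdk6) stood at 990.8 (M11) and 994.8 (M12) CPM, against 909, 1810 and 1055 in M9, M10 and the third library. Only M10 stood apart, and it was the 1 gene of the set that edgeR called higher without M9 (log2 0.86; adjusted p = 0.004, with 0.004 to 0.919 over its alternatives). Cyclin D1 (Ccnd1) was at 1670 and 1251 CPM in organoids alone, against 1491, 1892 and 650.5 in the co-cultures, so that the groups overlapped and M10 and the third library were on opposite sides. Cyclin D3 (Ccnd3) ranged from 75.3 to 111 CPM over the 5 libraries. Cdk4, at 253, 248, 259, 222 and 229 CPM in M11, M12, M9, M10 and the third library, was the steadiest of the kinases, and Cdk6 ranged from 209 to 334 CPM. The D cyclins summed to 2762, 2327, 2485, 3813 and 1781 CPM in M11, M12, M9, M10 and the third library. The other 41 genes together summed to 2793, 2606, 2434, 1613 and 1319 CPM.

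Per length, as CPM divided by the kilobases of annotated exon (GENCODE M21, all transcripts of a gene merged), cyclin D1 was the most abundant G1 cyclin in each of the 4 libraries of the shared table, between 266 and 402 CPM per kilobase. Cyclin D2 lay between 96.6 and 192 CPM per kilobase, D3 between 9.27 and 12.7, E1 between 3.21 and 10.4 and E2 between 0.748 and 3.70. The order D1, D2, D3, E1, E2 was the same in the 4 libraries. D3 and E1 were close in M11 and M12, where they stood at 11.5 and 10.4 and at 9.27 and 8.27 CPM per kilobase, which is within the spread between these libraries, and they were further apart in M9 and M10. Merged exons are longer than the transcript a cell mostly uses for some genes, Ccnd3 among them (8775 bases), and this lowers its level on this scale.

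**Figure D2:**
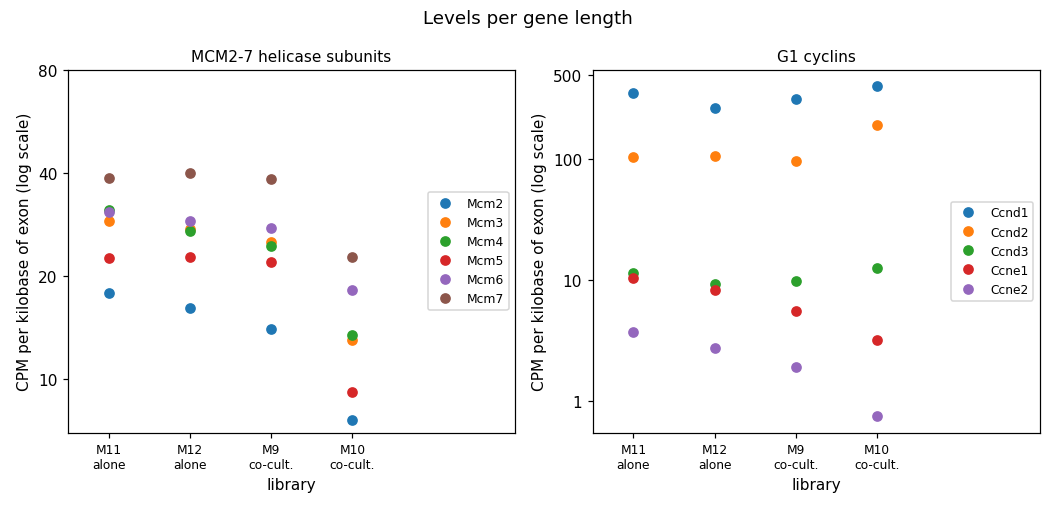
CPM per kilobase of exon (log scale) of the MCM2-7 subunits (left) and the G1 cyclins (right) in the 4 libraries of the shared table, 1 point per gene and library. The MCM subunits lie lower in M10 (7.58 to 22.7) than in the other 3 libraries (13.97 to 39.9), with some overlap between subunits, whereas Ccnd1 and Ccnd2 are highest in M10.

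Of the E2F and pocket protein genes, the activator E2f1 was at 40.8 and 34.3 CPM in organoids alone, against 25.6, 29.85 and 9.26 in M9, M10 and the third library, without overlap (log2 fold change -0.45 ± 0.19, SE; adjusted p = 0.314, edgeR). E2f1 was one of 5 members that were not lower in M10 than in M9, with Ccnd1, Ccnd2, Ccnd3 and Rb1. E2f2, a second activator, was at 9.12, 10.4, 7.92, 3.01 and 1.24 CPM in M11, M12, M9, M10 and the third library, and without M9 its log2 fold change was -1.71. E2f3 was at 45.1 and 42.2 CPM in organoids alone, against 38.6, 32.2 and 23.65 in the co-cultures (-0.31 ± 0.18, SE; adjusted p = 0.467, edgeR). The pocket proteins Rb1 and Rbl1, which hold E2F in check, differed from each other. Rb1 was at 30.05, 21.6, 26.3, 37.8 and 42.5 CPM and thus highest in M10 and the third library, while Rbl1, itself known as an E2F target, was at 34.1, 28.9, 27.9, 14.5 and 13.25 CPM.

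All 10 licensing genes had a negative fold change (median -0.59), and in all 10 M9, M10 and the third library lay below both libraries of organoids alone. Over all genes 16.5% did so, and 32 of the 44 members did. Cdt1, which helps load the MCM helicase, was at 39.4, 35.9, 28.5, 20.9 and 8.83 CPM in M11, M12, M9, M10 and the third library (log2 fold change -0.62 ± 0.22, SE; adjusted p = 0.237, edgeR). Its partner Cdc6 was at 25.0, 20.6, 16.7, 7.44 and 4.73 CPM (-0.93 ± 0.41; adjusted p = 0.326, edgeR). Orc1, the cell-cycle-regulated large subunit of the origin recognition complex, was at 8.93 and 8.23 CPM in organoids alone, against 5.91, 1.72 and 1.87 in the co-cultures. It had the largest fall of the set without M9, at -2.32 on the log2 scale. Orc6 was at 31.9, 27.6, 24.3, 19.6 and 19.75 CPM, a smaller spread.

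The 6 subunits of the MCM2-7 ring were all lower in M10 than in M9 and lower again in the third library. Mcm5, for example, was at 90.3, 90.9 and 87.6 CPM in M11, M12 and M9 and at 36.55 CPM in M10 and 18.8 CPM in the third library. M9 was thus within a few CPM of the organoids alone, and M10 and the third library stood far below. Mcm2 was at 124, 112.5, 97.2, 52.7 and 46.4 CPM in M11, M12, M9, M10 and the third library (log2 fold change -0.66 ± 0.30, SE; adjusted p = 0.341, edgeR). Mcm7, whose annotated exons overlap the microRNA genes Mir25 and Mir93, was at 171, 176, 170, 101 and 81.0 CPM. Without M9 edgeR called all 6 lower, by -0.72 (Mcm6) to -1.32 (Mcm5) on the log2 scale. Per length, Mcm7 was the highest and Mcm2 the lowest subunit in each of the 4 libraries. The ratio of the highest to the lowest was 2.18, 2.465, 2.76 and 3.00 in M11, M12, M9 and M10. Order and ratio depend on the length used. The merged exons of Mcm2 hold 6956 bases, which lowers its level, where the third library's count and FPKM imply 4008 bases. The 6 levels summed to 170, 162, 152 and 84.1 CPM per kilobase in these libraries.

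Helicase activation genes were close to the organoids alone in M9 (median log2 difference -0.05) and lower in M10 (-0.78). Mcm10, a replisome scaffold, was at 25.9, 27.7, 27.4, 11.1 and 5.80 CPM in M11, M12, M9, M10 and the third library (log2 fold change -0.485 ± 0.43, SE; adjusted p = 0.638, edgeR). M9 lay between M11 and M12, and the other co-culture libraries lay far below. Cdc45, the partner of MCM and GINS in the active helicase, was at 19.5, 16.7, 16.5, 7.13 and 5.06 CPM (-0.625 ± 0.42; adjusted p = 0.526, edgeR). Of the GINS subunits, Gins4 varied least, at 30.2, 27.4, 32.1, 23.9 and 24.3 CPM, and Gins1 was at 7.99, 7.54, 8.59, 4.58 and 2.49 CPM. Gins3, the least abundant subunit per length in each library, was at 7.21, 5.11, 5.50, 3.66 and 3.70 CPM.

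Gins2 was at 52.6, 68.7, 46.4 and 35.3 CPM in M11, M12, M9 and M10 (-0.58 ± 0.23, SE; adjusted p = 0.273, edgeR) and at 4.20 CPM in the third library. Its log2 difference there was -3.82. The third library's count and FPKM for Gins2 imply a gene of 1235 bases, where GENCODE M21 gives it 4097 exon bases, and its exons overlap those of Gse1 on the other strand. For Tk1 they imply 1560 bases against 5198. Among other members with short implied lengths, Ccnd3 (2359 bases against 8775) and Slbp (2259 against 6076) differed by -0.27 and -0.225 in the third library. Rfc5 (2058 against 4669) and Rrm1 (4751 against 11012) differed there by -1.63 and -1.36. Whether the counted length bears on these differences was not tested. Which exons each table counted is not stated.

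Of the polymerase, clamp and Okazaki fragment genes, all 9 had a negative fold change, with a median of -0.59. In all 9 the 3 co-culture libraries lay below both libraries of organoids alone. Over all genes 49.9% had a negative fold change, and 16.5% had all 3 co-culture libraries below. Fen1 (flap endonuclease, which trims Okazaki fragments) stood at 54.6 (M11) and 52.4 (M12) CPM, against 36.0, 25.3 and 17.4 in M9, M10 and the third library. Its mean was 53.5 ± 1.62 CPM alone and 30.7 ± 7.55 CPM over M9 and M10 (SD, n = 2 each), which is -0.81 ± 0.22 in log2 units (SE; edgeR, adjusted p = 0.147), the smallest adjusted p of the set. M9 itself stood -0.57 from the organoids alone on the log2 scale, the third largest distance below them in the set after Ccne1 (-0.75) and Ccne2 (-0.74). Fen1 (ENSMUSG00000024742) lies on the minus strand of chromosome 19 from 10199132 to 10204169 in GRCm38, and its exons overlap those of Tmem258 and Gm10143 on the other strand.

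Pole, the catalytic subunit of the leading-strand polymerase, was at 59.0, 52.7, 44.1, 30.5 and 22.4 CPM in M11, M12, M9, M10 and the third library (-0.59 ± 0.23, SE; adjusted p = 0.269, edgeR). The sliding clamp Pcna was at 209 and 192 CPM in organoids alone, against 170, 102 and 127 in the co-cultures (-0.57 ± 0.26; adjusted p = 0.348, edgeR). Pcna, Rfc3, Pola1 and Prim1 were lowest in M10 rather than in the third library. The clamp loader subunit Rfc3 was at 23.2, 22.6, 19.5, 8.82 and 13.4 CPM, and Prim1, the primase, at 26.3, 21.0, 19.9, 9.84 and 11.96 CPM. The ligase Lig1 was at 52.9, 61.2, 50.7, 29.9 and 22.5 CPM.

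The nucleotide supply genes had their lowest values in the third library, except Tyms. Rrm2, the S-phase subunit of ribonucleotide reductase, was at 98.2, 85.0, 92.2, 38.5 and 11.1 CPM in M11, M12, M9, M10 and the third library (-0.49 ± 0.40, SE; adjusted p = 0.603, edgeR). Its partner Rrm1 was at 128, 121, 98.6, 65.3 and 48.5 CPM (-0.61 ± 0.23; adjusted p = 0.252, edgeR). Tk1, thymidine kinase, was at 43.0, 44.0, 39.3 and 31.4 CPM in the shared table and at 5.36 CPM in the third library, log2 differences of -0.31 (adjusted p = 0.491, edgeR) and -3.01. Tyms was at 33.5, 32.3, 37.5 and 14.8 CPM in M11, M12, M9 and M10, so that M9 was the highest library of the 4 and M10 the lowest.

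Uhrf1, which recruits Dnmt1 to newly replicated DNA, stood at 93.2 (M11) and 100.3 (M12) CPM, against 78.4, 31.8 and 24.7 in M9, M10 and the third library (-0.82 ± 0.41, SE; adjusted p = 0.387, edgeR). Without M9 it had the smallest adjusted p of the set (log2 fold change -1.61; adjusted p = 0.000358 in edgeR, with 0.000358 to 0.849 over its alternatives). In GRCm38 Uhrf1 spans 56303321 to 56323486 of chromosome 17, plus strand. Slbp, which binds the stem-loop of replication-dependent histone mRNAs, was at 55.0, 49.35, 43.5, 33.7 and 44.6 CPM (-0.45 ± 0.20; adjusted p = 0.333, edgeR), and the third library was above M9.

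**Figure D3:**
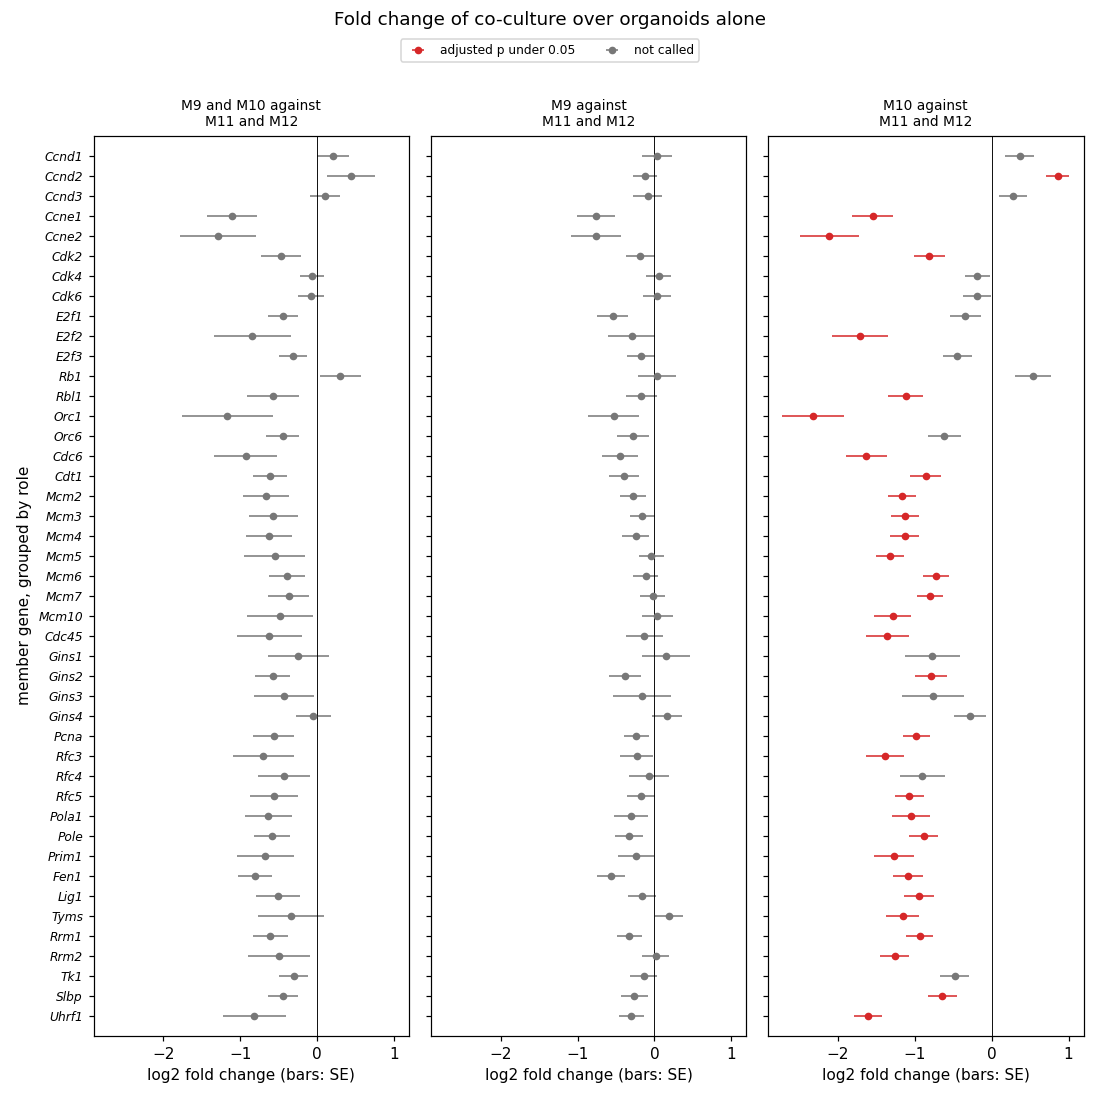
Log2 fold change of co-culture over organoids alone with its standard error (edgeR) for each of the 44 genes, from M9 and M10 together (left), from M9 alone (middle) and from M10 alone (right), each against M11 and M12; red points have an adjusted p under 0.05. No gene is red in the left and middle panels, and 30 lower and 1 higher (Ccnd2) are red in the right panel.

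Other genes of the pathway were taken from lists by role, and their counts at an unadjusted p under 0.05 stand beside 17.5% of all genes. Of 16 other licensing and origin firing genes, edgeR called 0 (3 at an unadjusted p under 0.05), 13 had a negative fold change and the median was -0.55. Clspn, a checkpoint adaptor at the fork, was at 34.8, 36.8, 18.5, 10.2 and 6.72 CPM in M11, M12, M9, M10 and the third library (-1.33 ± 0.32, SE; adjusted p = 0.107, edgeR), with M9 and M10 both far below the organoids alone. Timeless, its neighbour in fork protection, was at 30.5, 30.35, 21.9, 16.6 and 10.2 CPM (-0.67 ± 0.22; adjusted p = 0.206, edgeR). Of 24 other replisome and chromatin assembly genes, 0 were called (2 at an unadjusted p under 0.05), 22 were negative and the median was -0.385. Pold4, a small subunit of the lagging-strand polymerase, went the other way, at 34.1, 31.2, 37.1, 79.0 and 27.8 CPM. Of 12 other nucleotide supply genes 0 were called (1 at an unadjusted p under 0.05), 11 were negative and the median was -0.38.

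Of 17 other G1/S regulators edgeR called 0 (0 at an unadjusted p under 0.05), and 12 were negative with a median of -0.21. E2f7, an E2F repressor that is itself made in S phase, was at 17.7, 16.1, 11.9, 3.66 and 2.87 CPM in M11, M12, M9, M10 and the third library. Of 7 CDK inhibitor genes edgeR called 0 (1 at an unadjusted p under 0.05), 3 were negative and the median was 0.33. In the third library the direction was the other way. There 6 of the 7 lay below the organoids alone, against 50.4% of all genes, with a median of -0.446. Cdkn1c (p57) was at 2.57, 2.14, 5.85, 4.765 and 2.26 CPM (1.16 ± 0.38, SE; adjusted p = 0.198, edgeR), with the third library between M11 and M12. Cdkn1b (p27) was at 42.6, 47.2, 48.5, 65.3 and 72.9 CPM, higher in each co-culture library than in the organoids alone. Cdkn1a (p21) was at 257.5, 377, 277, 182 and 38.9 CPM and Cdkn2a at 16.7, 29.0, 25.2, 59.1 and 12.7 CPM, so that M10 and the third library differed in direction for Cdkn2a. DESeq2 called 1 gene of these 5 lists, in the licensing and firing list, and limma-voom 0.

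M10 was below M9 for 39 of the 44 (median log2 difference -0.77), where 49.9% of all genes tested were below and their median was 0.00. The median absolute difference was 0.78 over the members and 0.34 over all genes. Between M11 and M12 it was 0.13 over the members and 0.22 over all genes, so M11 and M12 were closer to each other for this set than M9 and M10 were. Of 24 G2 and mitosis genes, M10 lay below M9 for 24 of 24 (median -0.83). Mki67, a mark of cycling cells, was at 197, 197, 189, 113 and 67.55 CPM in M11, M12, M9, M10 and the third library. Their median fold change was -0.37, with 0 called by edgeR (0 at an unadjusted p under 0.05), 0 by DESeq2 and 0 by limma-voom, and their median in the third library was -1.81. No test compares these lists with each other or M9 with M10, which are single libraries.

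**Figure D4:**
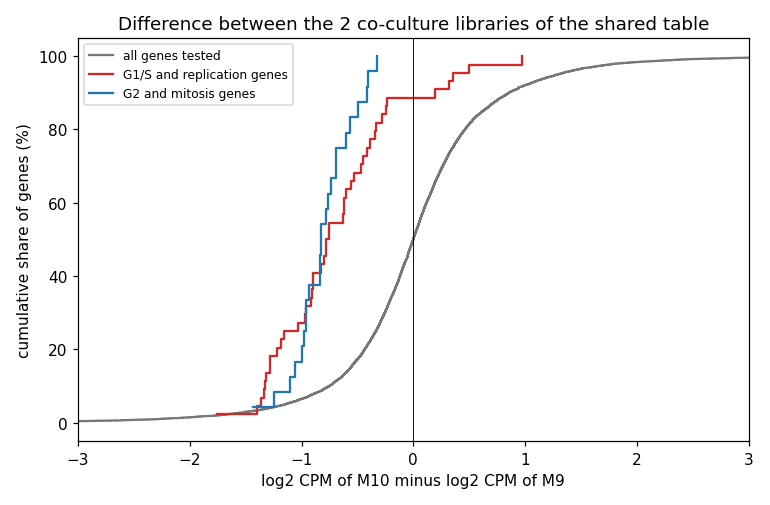
Cumulative share of genes (vertical, %) against the log2 CPM difference of M10 minus M9 (horizontal) for all 15899 genes tested, the 44 G1/S and replication genes and 24 G2 and mitosis genes. The curve of all genes crosses 0 at 49.9%, whereas 39 of the 44 and 24 of the 24 lie below 0.

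The third co-culture library was below M9 for 41 of the 44 members and below M10 for 32, where 50.3% and 50.8% of all genes were below. It held the lowest value of the 5 libraries for 31, against 33.3% of all genes. M11 and M12 are the controls for it and for M9 and M10, so these comparisons share them. Of the cell type lists, the mesenchymal and macrophage sums were lower in each co-culture library than in M11 and M12. For the hepatocyte and biliary sums, the third library did not go with M9 and M10. The 12 mesenchymal genes listed summed to 28.9 and 88.9 CPM in M11 and M12 and to 2.48, 3.41 and 8.41 in M9, M10 and the third library. In the co-cultures 4, 3 and 3 of them were at 0 counts. The low-count filter passed 7 of the 12, and edgeR called 3 lower and 0 higher. The 8 macrophage genes summed to 703 and 621 CPM alone and to 333, 304 and 437 in the co-cultures. Most of that was Cd14, which fell (-1.22 ± 0.175, SE; adjusted p = 0.0349, edgeR), as did Lyz2, while the defining markers Adgre1 and Clec4f were at 0 in all 5 libraries. Of the 8 macrophage genes 4 passed the low-count filter. M9 and M10 both lay below M11 and M12 for 2 of these and both above for 2. Over all genes 25.1% lay below in this way and 24.3% above. The 10 hepatocyte genes summed to 622 and 1510 CPM alone and to 142, 237 and 1440 in the co-cultures. The filter passed 6 of the 10, and edgeR called 2 lower, Alb and Trf. M9 and M10 both lay below M11 and M12 for 4 of the 6 and both above for 2. The 12 biliary and progenitor genes summed to 14800 and 19600 CPM alone and to 30100, 25300 and 12400 in the co-cultures, with none at 0. Of these, edgeR called Krt7 (1.11 ± 0.15, SE; adjusted p = 0.0303), Krt19 (1.15 ± 0.18; adjusted p = 0.0436) and Prom1 (1.19 ± 0.15; adjusted p = 0.0264) higher in M9 and M10 and 0 lower. Their part in the differences of the replication genes was not tested. Reads from overlapping genes on the other strand could not be separated where counting without strand was used, and 19 of the 44 members share at least 50 exon bases with such a gene in GENCODE M21.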

How the data were processed

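Stranded libraries were made from PicoPure total RNA depleted of ribosomal RNA, per the labels' protocols. The aligners (Bowtie2 2.3.4.1, HISAT2 2.1.0), StringTie 2.1.3b, FastQC 0.11.7, Trimmomatic 0.38 and the builds mm10 and GRCh37 are named without roles in the submitters' processing notes. For the counter, strand setting and annotation: not given in the sources used here.

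The authors deposited estimated counts per Ensembl gene for M11, M12, M9 and M10, per the file headers. Its 73925 rows repeat genes with identical values, and 1 row was kept for each of 52029 genes. Each column is named by group plus a number found in no label, so only its counts were used. Whole-number counts and FPKM per RefSeq gene were deposited by the authors for the third co-culture library, per the file headers. The FPKM served only to derive the gene length behind a count. The library was joined by symbols unique in both tables (30831 genes, 91.8% of its counts, mitochondrially encoded genes not joined). Estimated counts were rounded, which touched 18 of the 44 members.

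The test for the 4 libraries was edgeR 4.0.16 under R 4.3.3 (filterByExpr, TMM, robust quasi-likelihood test, Benjamini-Hochberg adjustment over all genes at 0.05). Standard errors were derived from the F statistic and the fold change. Log2 CPM differences use a prior count of 2. On simulated counts for 15472 genes, edgeR recovered 36% of genes changed 2-fold and 82% changed 4-fold, with 24 false calls among 181, and DESeq2 1.42.0 made 42 among 209. Alternatives were other scalings, DESeq2, limma-voom (limma 3.58.1), other filters, all 5 libraries, and leaving out each library. The members, the lists and the rule for genes named (all members, with full statistics for up to 3 a role by smallest p, and up to 4 of each other list by smallest p) were chosen with earlier results of these data known. Gins1, Gins3, Gins4, Orc1, Orc6, Mcm5 and other members given without statistics are named for their role. Gene positions are from GENCODE M21 (GRCm38), and all 44 members were found by Ensembl ID.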

Additional observations from a re-analysis of the deposited data

How the results depend on the processing

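The direction of the median held in every alternative run, and the number of members called did not. The count of genes called over the whole table, 356, was 1301 with DESeq2, 1404 without a low-count filter and 2 with all 5 libraries, and 0 to 2619 with a library left out (2619 without M9, 1114 without M10, 50 without M11 and 0 without M12, with 1438 at an unadjusted p under 0.05). Members called lower numbered 2 with DESeq2 and 2 without a filter (Ccne1 and Fen1 in both), and 0 to 30 with a library left out, 30 being without M9. Members called higher numbered 0 to 1, the 1 being Ccnd2 without M9. With all 5 libraries 0 of the 44 were called (5 at an unadjusted p under 0.05). The members' median of -0.53 was -0.76 with all 5 libraries and ranged from -0.94 (without M9) to -0.18 (without M10). The third library's median of -1.34 was -1.24 by total count and -1.38 to -1.29 with M12 or M11 left out. Another E2F word of the same length, GGCGGGAA, was in 13.95% of the members' windows and in 2.19% of all windows. The E2F letters used above, several words searched together, were in 37.2% and 2.26%, so the members' shares are not like for like.

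Some members changed sign, none of them called on all 4 libraries. With all 5 libraries Ccnd1 was at -0.12 and Ccnd3 at -0.0077. With a library left out the fold change ran from -0.12 to 0.86 for Ccnd2, -0.087 to 0.28 for Ccnd3, -0.19 to 0.053 for Cdk4, -0.22 to 0.075 for Cdk6, -1.29 to 0.037 for Mcm10, -0.77 to 0.15 for Gins1, -0.28 to 0.16 for Gins4, -1.16 to 0.19 for Tyms and -1.26 to 0.014 for Rrm2. The cause was not tested. The other members kept their sign. No paired analysis was possible because the columns of the shared table carry library numbers and not the replicate numbers of the labels.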
